A study of Drosophila melanogaster with 2 samples.

Results

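The proteasome is the protease that destroys ubiquitin-tagged proteins in the cytoplasm and nucleus. Its barrel-shaped core particle is built from rings of alpha subunits, which gate the entry, and rings of beta subunits, some of which cut peptide bonds. A regulatory particle caps the core: its ring of Rpt ATPases unfolds the substrate, and its Rpn subunits bind, deubiquitinate and position it. The subunits are needed in fixed proportions, and in flies and mammals many of their genes are induced together by a cap'n'collar transcription factor when protein turnover is impaired. GATAe belongs to the GATA family of zinc-finger transcription factors and is known from the fly endoderm and midgut. The peak lists say where in the genome a tagged copy of it was found in embryos, and the genes of this complex are described here by that measure.

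The members were all protein-coding genes of the Ensembl annotation of the dm6 assembly whose symbol starts with Prosalpha, Prosbeta, Rpn or Rpt. There were 48 of them among 13968 protein-coding genes on the chromosome arms. The core particle was represented by 25 genes (12 Prosalpha and 13 Prosbeta) and the regulatory particle by 23 (9 Rpt and 14 Rpn). By their symbols 32 were standard subunits, and 16 were paralogs with an R or T suffix, several of which are known from the fly testis. The symbol rule leaves out subunits with other names.

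There was 1 group, Drosophila melanogaster embryos collected over 0 to 24 h that carried a GATAe-eGFP transgene, with 2 biological replicates. Chromatin of whole embryos, sheared by sonication to 200 to 800 bp, was precipitated through the GFP tag. The labels do not say which promoter drives the fusion, and the labelled control experiment was not analysed here. In whole embryos, occupancy in few cells and weak occupancy in many cells cannot be told apart.

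Only peak lists were used, and they hold no read counts, so the sequencing depth behind them is unknown. The conservative list, which pairs the replicates, held 3047 peaks, of which 3032 lay on the arms. Its signal value, the authors' measure of peak strength, had a median of 92.3 and ran from 2.15 to 958. Replicate 1 had 2479 thresholded peaks and replicate 2 had 1822. Peaks in a thresholded list have an irreproducible discovery rate (IDR, an estimate of how often peaks this good fail to recur) of 0.01 or less. Each replicate also had a ranked list of candidates at any IDR, 31595 in replicate 1 and 63150 in replicate 2, and another ranked list of 62931 candidates paired them.

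Of the 48 proteasome genes, 1 had a summit of the conservative list in its window, which is the gene body plus 2 kb upstream. It was Rpn3, a non-ATPase subunit of the regulatory particle. The share was 2.08% (exact 95% interval 0.0527 to 11.1%), against 19.0% of all protein-coding genes. The intervals cover counting error only, and no test was run over genes, which are not replicates. Proteasome gene windows were short, with a median of 3381.5 bp and a range of 2881 to 6500 bp, against a median of 4164.5 bp over all genes. Among the 10150 genes with a window no longer than 6500 bp, 13.8% had a summit, a comparison chosen after the data were seen.

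The Rpn3 summit was nearest to the gene's own transcription start site (TSS). Counted that way, 1 of 48 members (2.08%) had a summit nearest to its own TSS, against 13.1% of all genes, and no member had one nearest to a neighbour's TSS. A count by distance from a TSS, which does not use the gene body, gave the same gene. Any annotated TSS counted, so genes with several had more chances. Within 1 kb of an own TSS lay a summit for 1 of 48 proteasome genes and for 13.8% of all genes, and within 500 bp for 1 of 48 and for 11.4%. The member windows together spanned 170 kb and held 5.89 summits per Mb, against 28.1 per Mb over the windows of all protein-coding genes.

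**Figure D1:**
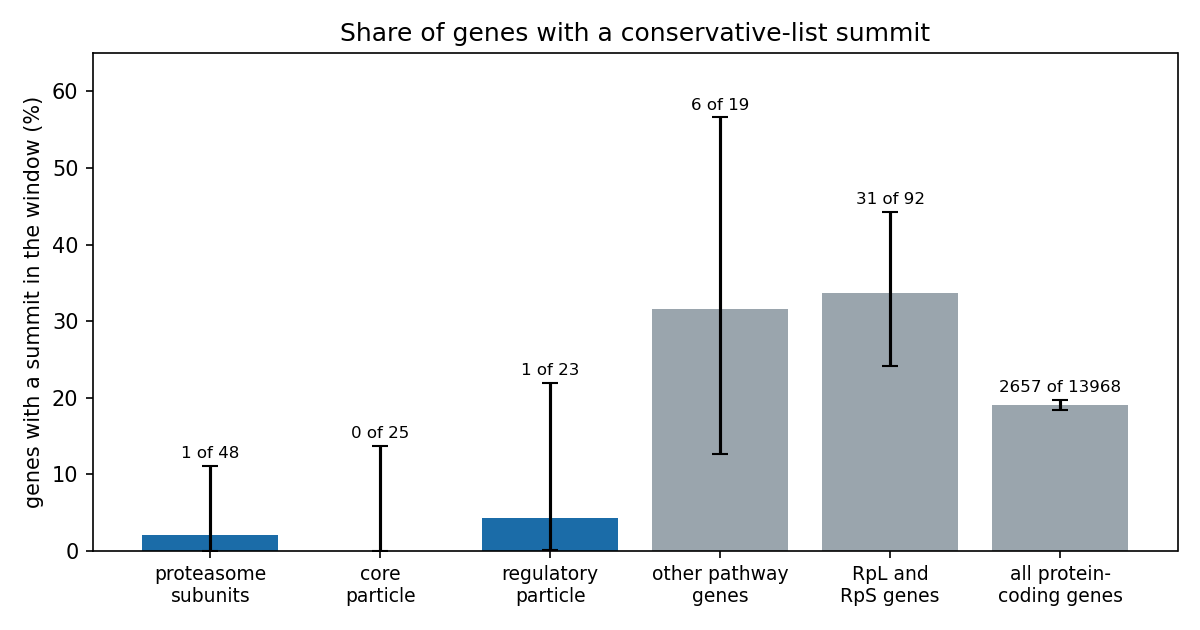
Percent of genes with a conservative-list summit in the gene body plus 2 kb upstream, with exact 95% binomial intervals, for the proteasome subunits and their particles (blue) and for comparison sets (grey). Of the proteasome subunits 1 of 48 had a summit, against 2657 of 13968 protein-coding genes.

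The proteasome genes that carry the result are shown here by sequence, read from the RefSeq copy of dm6, 5′ to 3′ on the strand of the gene, with capitals marking each GATA or its reverse complement TATC. Rpn3 is the bound member. Prosbeta3, Prosbeta7 and Rpt3 had no summit and hold GATAAG in their promoters, and were chosen as examples after the data were seen. Most genes with that word have no summit either: 15.2% of them had one within 500 bp of the TSS. The Rpn3 stretch lies at chr2L:19051606-19051809 on the plus strand, Prosbeta3 at chr3R:9006207-9006406 on the minus strand, Prosbeta7 at chr3R:5358345-5358544 on the minus strand and Rpt3 at chrX:11124921-11125120 on the plus strand. Each ends 20 bases into the gene, counting the TSS.
Rpn3: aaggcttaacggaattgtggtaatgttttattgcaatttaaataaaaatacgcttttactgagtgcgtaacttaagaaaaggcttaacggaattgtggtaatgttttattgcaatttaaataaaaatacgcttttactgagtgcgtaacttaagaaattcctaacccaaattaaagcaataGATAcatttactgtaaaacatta
Prosbeta3: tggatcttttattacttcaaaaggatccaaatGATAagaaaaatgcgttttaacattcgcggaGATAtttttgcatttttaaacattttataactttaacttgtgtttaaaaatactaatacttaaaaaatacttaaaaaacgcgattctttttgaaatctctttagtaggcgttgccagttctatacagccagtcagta
Prosbeta7: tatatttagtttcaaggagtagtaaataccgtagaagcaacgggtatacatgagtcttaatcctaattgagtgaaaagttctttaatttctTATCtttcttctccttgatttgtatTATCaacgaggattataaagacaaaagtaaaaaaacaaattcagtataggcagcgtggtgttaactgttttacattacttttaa
Rpt3: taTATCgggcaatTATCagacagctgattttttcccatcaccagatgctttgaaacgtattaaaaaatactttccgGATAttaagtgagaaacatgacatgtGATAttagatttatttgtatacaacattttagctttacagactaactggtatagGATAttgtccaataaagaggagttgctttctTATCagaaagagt

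Rpn3 (FBgn0261396), whose protein belongs to the lid of the regulatory particle, had its peak at chr2L:19051625-19051984. The summit at 19051805 lay 15 bp downstream of the TSS, in the 5′ UTR exon. The start of the divergent gene l(2)37Bb (FBgn0002021) lay 193 bp from the summit, and the starts of the 2 genes were 178 bp apart. The signal was 78.7, rank 2020 of 3047, below the median of the list. In the replicates' own ranked lists the matching candidate had a signal of 41.9 in replicate 1, at an IDR of 0.0446, and of 40.4 in replicate 2, at an IDR of 0.0116. Both replicates thus held a candidate there and neither passed the threshold of 0.01 on its own. In the list that pairs them the IDR was 0.00150.

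The Rpn3 summit had no WGATAR within 50 bp, where WGATAR is GATA with an A or a T before it and an A or a G after it, on either strand. It had 1 bare GATA, the capitals in its sequence above, and no GATAAG, the form of the word with a G at its end. Over all 3032 summits of the list on the arms, 46.0% had WGATAR within 50 bp, 72.1% had a bare GATA and 28.9% had GATAAG. The sequence also shows a direct repeat. A stretch of 82 bases from 19051603 to 19051684 recurred without a mismatch 78 bases further on, ending 28 bp before the TSS. No other summit among the 3032 had a repeat of 50 bases or more at a distance of up to 200 bases within 300 bp, and 23 of 13968 genes (0.165%) had one around their most upstream TSS. Whether the repeat plays a part in the peak was not tested.

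None of the 25 core particle genes had a summit (exact 95% upper limit 13.7%). The genes of the catalytic subunits, Prosbeta1 with caspase-like, Prosbeta2 with trypsin-like and Prosbeta5 with chymotrypsin-like activity, were among them. Of the 23 regulatory particle genes 1 had a summit, 4.35% (exact 95% interval 0.110 to 21.9%). The core interval, 0 to 13.7%, and the regulatory interval overlap, and no test of a difference between the particles was run. With these numbers of genes the counts do not tell the particles apart. Neither the 9 Rpt genes nor the 16 paralogs had a summit, with exact 95% upper limits of 33.6% and 20.6%. Over all protein-coding genes the share was 19.0%. The regulatory, Rpt and paralog counts could not be told from that share, since their upper limits lie above it. The core limit of 13.7% lay below it, but close to the 13.8% of genes with a window no longer than 6500 bp.

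Below the threshold, most members did have a candidate, as did most genes. In replicate 1's ranked list 33 of 48 proteasome genes (68.8%) had a candidate summit in the window, against 74.9% of all protein-coding genes. In replicate 2's, 34 of 48 (70.8%) had one, against 81.5%, and in the list that pairs them 35 of 48 (72.9%), against 81.1%. Core genes had one in 15 of 25 cases in replicate 1 and in 14 of 25 in replicate 2, and regulatory genes in 18 of 23 and in 20 of 23. Prosalpha1, Prosalpha2, Prosbeta5, Prosbeta7 and Rpt4, a total of 5 members (10.4%), had none in any of the 3 ranked lists, against 8.08% of all genes. Regulatory gene windows were longer than core ones, with medians of 3686.0 and 3201.0 bp. Counts and signals by particle were not matched on that length.

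The strongest candidate of each member had a median signal of 16.6 in replicate 1 (range 9.67 to 60.0) and of 17.7 in replicate 2 (range 8.80 to 40.4). Over all genes with a candidate the medians were 22.2 and 22.4, for windows that are longer on average. The median over members of the lowest IDR in the window was 0.598 in replicate 1 and 0.748 in replicate 2, against 0.359 and 0.547 over all genes with a candidate. At an IDR of 0.05 or less, 6 members had a candidate in replicate 1 (Rpn3, Rpn8, Rpn11, Prosalpha3, Prosbeta2 and Prosbeta6), against 23.7% of all genes, and 1, Rpn3, had one in replicate 2, against 17.1%.

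By class, the strongest candidates of core genes ran from 9.89 to 34.1 in replicate 1 (median 16.1) and from 8.97 to 32.5 in replicate 2 (median 17.1). Those of regulatory genes ran from 9.67 to 60.0 (median 18.1) and from 8.80 to 40.4 (median 18.5), so the ranges of the particles overlapped in both replicates. Of the catalytic subunit genes, Prosbeta2 had 34.1 and Prosbeta1 had 18.4 in replicate 1, neither had a candidate in replicate 2, and Prosbeta5 had none in either. Prosalpha7, an alpha ring subunit, had the strongest core candidate of replicate 2, 32.5, against 17.2 in replicate 1. Rpn1 and Rpn2, the large scaffold subunits of the base, had 19.1 and 10.8 in replicate 1 and 23.6 and 28.3 in replicate 2. Rpn10 and Rpn13, which are ubiquitin receptors, had 11.5 and 18.5 in replicate 2, and in replicate 1 Rpn13 had 21.0 and Rpn10 had no candidate. The strongest paralog candidates had 21.9 in replicate 1, at Prosbeta2R2, and 22.7 in replicate 2, at Rpt4R.

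**Figure D2:**
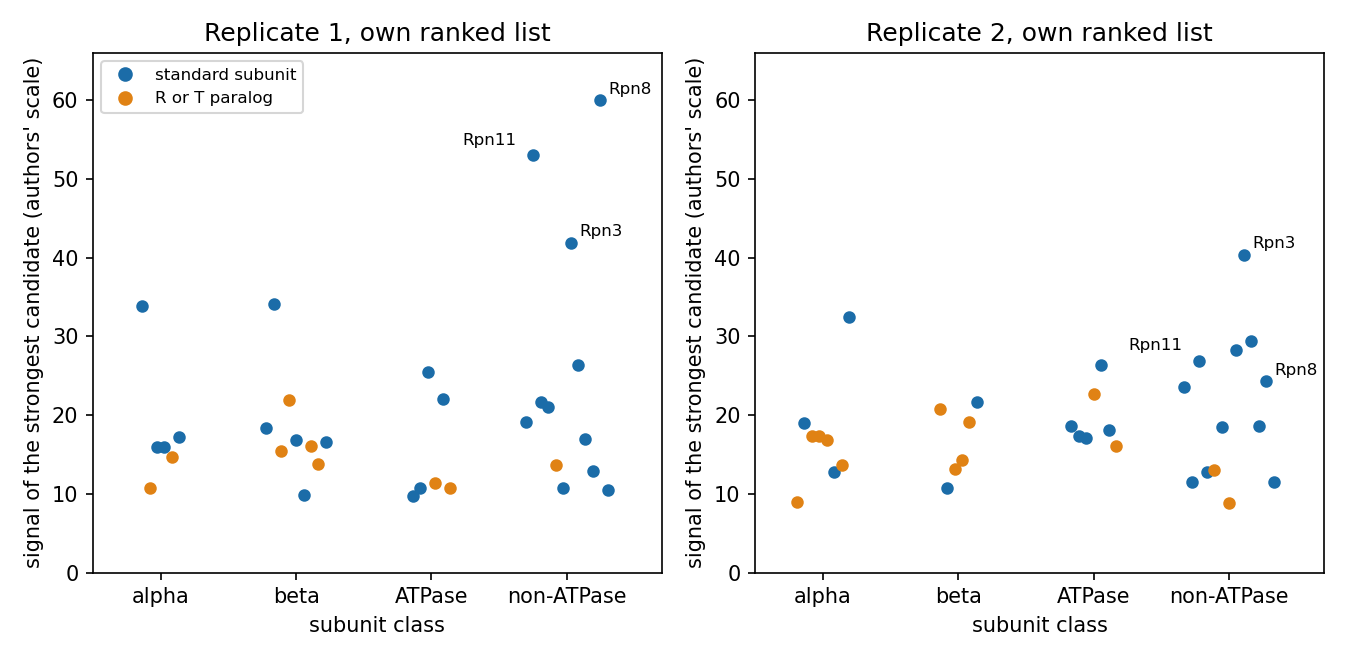
Signal of the strongest candidate in each proteasome gene window, on the authors' scale, in each replicate's own ranked list, by subunit class (blue, standard subunits, orange, paralogs, members with no candidate not drawn). Rpn8 (60.0) and Rpn11 (53.0) stand highest in replicate 1 and Rpn3 (40.4) in replicate 2.

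Outside the list, the 4 members with the lowest IDR in the ranked list that pairs the replicates were all regulatory particle genes. Rpn5 (FBgn0028690), a lid subunit, had an IDR of 0.0166 at chr3R:5788958-5789317, with a signal of 26.4 in replicate 1 and 29.4 in replicate 2. That summit lay in an intron of Hat1, 64 bp from a Hat1 TSS and 355 bp from the Rpn5 TSS. Rpn11 (FBgn0028694), the deubiquitinase of the lid, had an IDR of 0.0275 at chr2L:5059733-5060092, 123 bp upstream of its own TSS, with a signal of 24.5 in replicate 1 and 26.9 in replicate 2. Neither was near the threshold in a single replicate, with IDRs of 0.598 and 0.749 in replicates 1 and 2 for Rpn5, and of 0.178 and 0.801 for Rpn11. Rpn11 also had 2 candidates in the qtc gene next to it, both at an IDR of 0.0499.

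Rpt5 (FBgn0028684), a ring ATPase, had an IDR of 0.0449 at chr3R:23752653-23753012. The summit was 43 bp upstream of the Rpt5 TSS but 1 bp from that of the divergent gene RanBP3, and the signals were 22.0 in replicate 1 and 26.4 in replicate 2. Of these candidates it had the most GATA letters within 50 bp of the summit, 4 GATA over both strands, with 1 GATAAG and no WGATAR. Rpn8 (FBgn0002787), the partner of Rpn11 in the lid, followed with an IDR of 0.0710 at 24399733 to 24400092 on 2R. Replicate 2 had a signal of 20.8 there. Replicate 1 had no candidate summit inside that peak, though its own Rpn8 peak, described below, overlapped it. With Rpn3, therefore, 4 of 48 members (8.33%) had a summit at an IDR of 0.05 or less, against 25.9% of all genes, and these 4 were regulatory particle genes. The core had none of 25 at that threshold (exact interval 0 to 13.7%). The regulatory particle had 4 of 23 (17.4%, exact interval 4.95 to 38.8%). The intervals overlap, no test between the particles was run, and regulatory gene windows were longer. In replicate 1's own ranked list 3 core and 3 regulatory genes had a candidate at an IDR of 0.05 or less. In replicate 2's, 0 core genes and 1 regulatory gene had one.

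**Figure D3:**
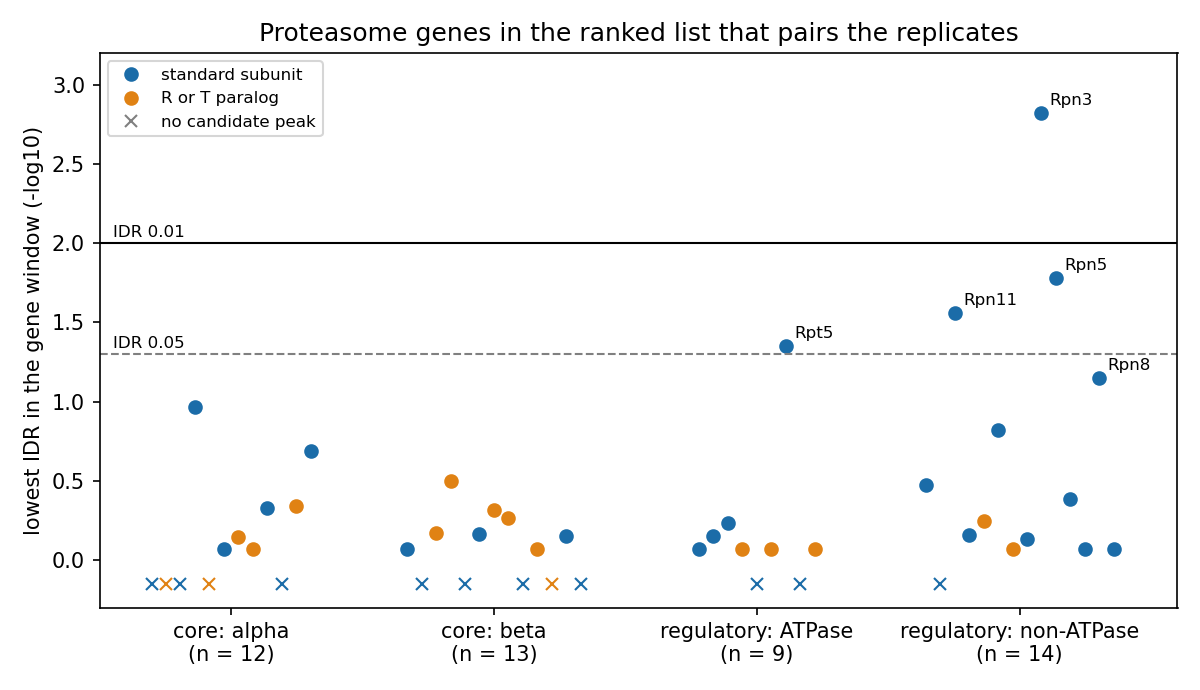
Lowest IDR, as −log10, of any candidate in each member's window in the ranked list that pairs the replicates, by subunit class (blue, standard subunits, orange, paralogs, crosses, no candidate). The lines mark an IDR of 0.01, which Rpn3 passed, and of 0.05, which Rpn3, Rpn5, Rpn11 and Rpt5 passed.

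Replicate 1's own thresholded list named other members. It had a summit for 2 of 48 (4.17%), Rpn8 and Rpn11, against 17.5% of all genes, and replicate 2's list had one for 0 of 48 (exact 95% upper limit 7.40%), against 12.4%. The Rpn8 peak in replicate 1, at 24399531 to 24399866 on 2R, had a signal of 60.0 and an IDR of 0.00160. It lay 329 bp upstream of Rpn8 in an intron of Slik, with 2 WGATAR words within 50 bp of the summit. Replicate 2 had no candidate summit inside it, and the strongest in its Rpn8 window had 24.3. A replicate 2 candidate at 24399741 to 24400056 overlapped the peak, with a signal of 20.8 at an IDR of 0.787. The Rpn11 peak in replicate 1, at chr2L:5061038-5061373, had a signal of 53.0 and an IDR of 0.00272. It lay in an intron of qtc, 391 bp from a qtc TSS and 1416 bp upstream of Rpn11, and replicate 2 had no candidate summit inside it either. A replicate 2 candidate at 5061314 to 5061629 overlapped it, with a signal of 21.3 at an IDR of 0.465. In the second of the thresholded lists of the whole series, Rpn3 and Rpn8 had a summit, 2 of 48 (4.17%), against 17.7% of all genes, and the Rpn8 peak had a signal of 88.9. The same Rpn8 peak had an IDR of 0.0711 in the ranked list that pairs the replicates.

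Among core genes the lowest IDRs in replicate 1's ranked list were 0.0354 at Prosbeta6, 0.0400 at Prosalpha3 and 0.0430 at Prosbeta2. The Prosalpha3 candidate had a signal of 33.8 in replicate 1, and the best one in replicate 2 had 19.0 at an IDR of 0.793. Prosbeta2 had 34.1 in replicate 1 and no candidate in replicate 2. The Prosbeta6 candidate, nearest to Su(P), had 11.5 in replicate 1, and replicate 2 had 21.7 at an IDR of 0.742 there. In the ranked list that pairs the replicates the IDR was 0.108 at Prosalpha3 and 0.706 at Prosbeta6, and Prosbeta2 had no candidate.

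The summits nearest to the other members lay nearest to the TSS of another gene. From the TSS of a proteasome gene to the nearest conservative-list summit the median distance was 13.9 kb, against 12.5 kb over the 13945 protein-coding genes on chromosomes with a summit. Within 2 kb of a TSS lay a summit for 1 of 48 members (2.08%) and for 17.9% of all genes, within 5 kb for 8 (16.7%) and 30.0%, and within 10 kb for 17 (35.4%) and 44.5%. After Rpn3 at 15 bp came Rpn5 at 2276 bp, from a summit at Hpf1 with a signal of 279, then Prosalpha3 at 2366 bp, from one at CG10543 with 120, and Prosalpha4 at 2711 bp, from one at eas with 68.1. Extending the windows to 5 kb upstream took in Prosbeta7 and Rpt4, for 3 of 48 (6.25%) against 25.6% of all genes. Both added summits were nearest to other genes, Cerk and CG15891.

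**Figure D4:**
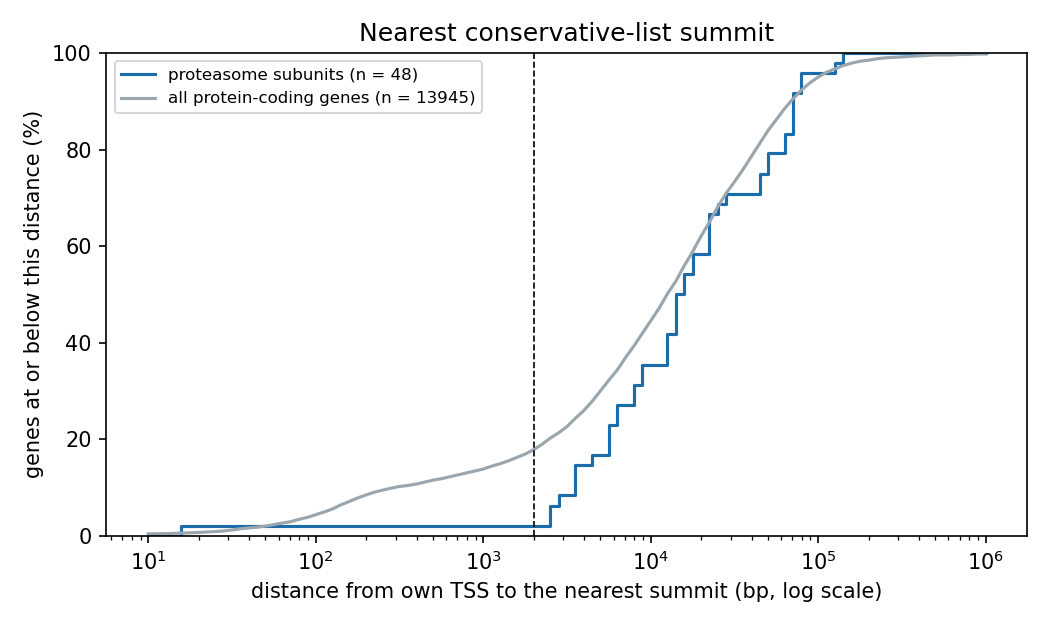
Cumulative percent of genes by the distance from an own TSS to the nearest conservative-list summit (bp, log scale), for proteasome subunits (blue) and all protein-coding genes (grey). The dashed line marks 2 kb, where the values are 2.08% and 17.9%.

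Promoters of proteasome genes held GATA words, as did those of many other genes. In the 250 bases before to 50 bases after the most upstream TSS, WGATAR was present on either strand in 25 of 48 members (52.1%), against 46.7% of all protein-coding genes. GATAAG, which overlaps WGATAR wherever an A or T precedes it, was present in 15 of 48 (31.2%), against 18.9%. GATAAG stood in 7 of the 25 core genes and in 8 of the 23 regulatory genes, and WGATAR in 16 and in 9. A summit within 500 bp of that TSS was found for 0 of the 25 members with WGATAR (exact 95% upper limit 13.7%), against 11.9% of all genes with the word, and for 0 of the 15 members with GATAAG (upper limit 21.8%), against 15.2%. Both limits lie above the shares over all genes, so a difference from other genes with the same word was not detectable. Over all genes without the word the shares were 7.33% for WGATAR and 8.16% for GATAAG. These are descriptions of letters and not of sites.

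The word of the DNA replication-related element, TATCGATA, bound in flies by the factor DREF at promoters of broadly used genes, was present in 12 of 48 members, against 9.36% of all promoters. All 12 were standard subunits, 6 of the core and 6 of the regulatory particle, and Rpn3 was one of them, with the word upstream of the stretch shown. TATCGATA holds GATA on both strands, and 3 of the 15 members with GATAAG had it overlapping this word. The antioxidant response word TGACNNNGC, where N is any base, which the cap'n'collar factors recognise, was present in 6 of 48 (12.5%), against 8.62%. The 6 were Prosalpha2, Prosbeta3, Prosbeta4R2, Rpn1, Rpn7 and Rpt6.

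**Figure D5:**
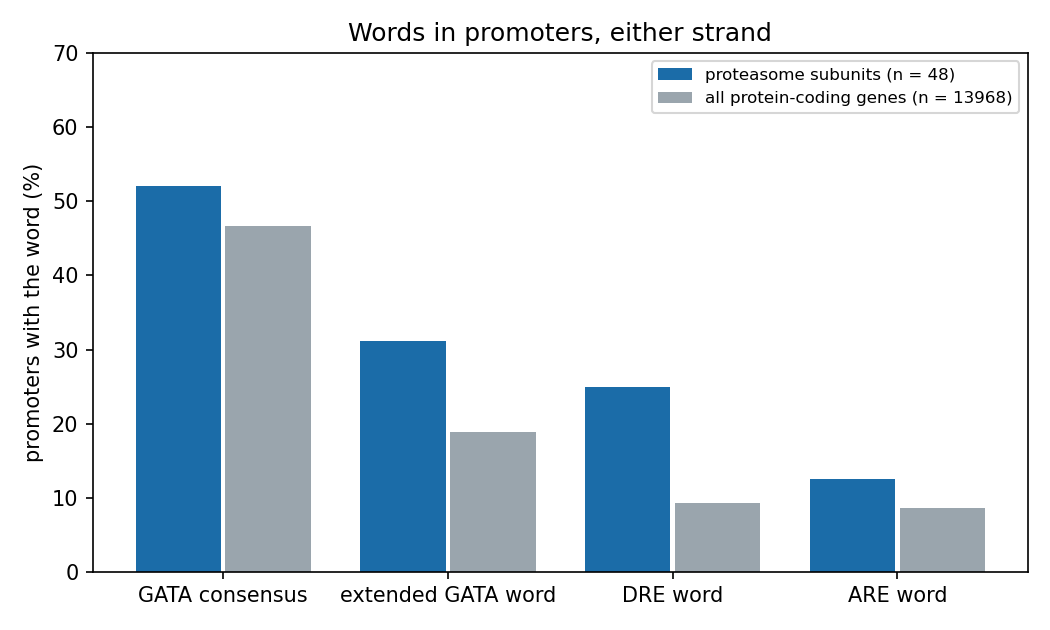
Percent of promoters (250 bases before to 50 after the most upstream TSS) with each word on either strand, for proteasome subunits (blue) and all protein-coding genes (grey). From left to right the words are WGATAR (52.1% and 46.7%), GATAAG (31.2% and 18.9%), TATCGATA (12 of 48 and 9.36%) and TGACNNNGC (12.5% and 8.62%).

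Genes that assemble, serve or regulate the proteasome were counted in the same way. Of a list of 19 such genes 6 had a summit in their window (31.6%, exact 95% interval 12.6 to 56.6%), against 19.0% of all genes, with windows of up to 43132 bp, so the share is not matched on length. They were the regulators cnc, Keap1 and Pngl, the assembly factor Pomp, and Npl4 and Ufd1, cofactors of the unfoldase TER94. The other 13, among them both polyubiquitin genes, the ubiquitin-activating enzyme gene Uba1, TER94, the inhibitor gene PI31 and the activator gene REG, had none. The 6 genes held 14 summits, 8 of them in peaks that overlap another of the 14, so these are not 14 separate places. Of the 14, 6 had WGATAR within 50 bp, against 46.0% of all 3032 summits.

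Keap1 (FBgn0038475), whose protein holds the CncC form of cnc inactive, had the strongest. At chr3R:17078108-17078257, in a Keap1 intron 78 bp upstream of an internal TSS, the signal was 254, with 110 in replicate 1 and 148 in replicate 2. The gene cnc (FBgn0262975) encodes the cap'n'collar factor itself. It had 6 summits, and those with signals of 5.80 and 9.97 lay in peaks that overlap a stronger one. Its strongest peak, at chr3R:23189505-23189642, was intronic, 301 bp upstream of an internal TSS, with a signal of 183, and 109 in replicate 1 and 77.7 in replicate 2. Both peaks passed the threshold in each replicate, at IDRs of 1e-05 in both replicates for Keap1 and of 1e-05 and 0.000114 in replicates 1 and 2 for cnc. Their summits are shown with the Pomp summit below, 50 bases to either side, as bound genes of the same pathway with and without a GATA word, on the strand of the gene and with capitals as above. They lie at chr3R:17078130-17078230 on the minus strand, chr3R:23189531-23189631 on the minus strand and chr2L:20787405-20787505 on the plus strand.
Keap1: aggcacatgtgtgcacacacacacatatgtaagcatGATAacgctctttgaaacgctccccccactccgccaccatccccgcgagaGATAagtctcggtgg
cnc: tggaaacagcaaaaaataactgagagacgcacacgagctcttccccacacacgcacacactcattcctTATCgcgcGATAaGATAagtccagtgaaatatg
Pomp: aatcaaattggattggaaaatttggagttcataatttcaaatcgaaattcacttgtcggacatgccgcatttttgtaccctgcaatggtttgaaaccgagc

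The other peaks at these genes were weaker. Pngl (FBgn0033050), which encodes the peptide N-glycanase that acts on the cap'n'collar factor in mammals and worms, had a signal of 101 at 6017465 to 6017824 on 2R, 94 bp upstream of its TSS, with 56.4 in replicate 1 and 43.9 in replicate 2. Ufd1 (FBgn0036136) had 92.4 at chr3L:11123075-11123434, 39 bp upstream of its TSS, with 55.9 and 38.4. Pomp (FBgn0032884), the maturation factor of the core particle, had 85.2 at chr2L:20787275-20787634, 201 bp upstream of its TSS, with 55.8 in replicate 1 at an IDR of 0.00200 and 33.5 in replicate 2 at an IDR of 0.894. The Npl4 window (FBgn0039348) held a peak of 133 in an exon of Ssadh, whose TSS was the nearest, with 82.0 in replicate 1 and 38.9 in replicate 2. It had 3 WGATAR words, whereas the Ufd1 summit, the Pomp summit and the stronger of the Pngl summits had no GATA within 50 bp. In replicate 2 the IDR was 0.0113 at this Pngl peak, 0.0539 at the Ufd1 peak and 0.0605 at the Npl4 peak. Like the Pomp peak, these passed the threshold of 0.01 in replicate 1 but not in replicate 2.

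The ribosome, another large cytosolic machine, was counted as well, a comparison added after the data were seen. Of the 92 genes whose symbol starts with RpL or RpS, which encode cytosolic ribosomal proteins and some like them, 31 had a summit in a window (33.7%, exact 95% interval 24.2 to 44.3%), with a median window of 3315.0 bp, close to that of the proteasome genes. Over all protein-coding genes the share was 19.0%, and among those with a window no longer than 6500 bp it was 13.8%. Fewer of the 92, 23, had a summit nearest to their own TSS, against 1 of 48 proteasome genes and 13.1% of all genes. The window interval of 24.2 to 44.3% does not overlap that of the 48 proteasome genes, 0.0527 to 11.1%. Both intervals cover counting error only, over genes that are not replicates, and no test of the difference was run.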

How the data were processed

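GATAe-eGFP was precipitated from whole embryos in 2 replicates of 1 group. The authors deposited peak lists on dm6, derived from alignments and a control per the deposited record. No aligner or caller is named in the sources used here. The deposited lists hold a signal value per peak, a score that scales the IDR and is 830 at an IDR of 0.01, the summit's offset from the peak start, and in ranked lists −log10 of the IDR. Signals from different lists are not comparable in size. In the 2 series-level ranked lists 16 columns that describe the paired inputs were not used.

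Coordinates are 1-based dm6 positions. Ensembl release 115 gave genes and RefSeq gave the sequence. Peaks off the arms (15) were left out. A summit was assigned to every gene whose window held it, and marked by the nearest protein-coding TSS. A replicate's value for a peak is its strongest ranked candidate with a summit inside that peak. Intervals and the upper limits beside counts of 0 are exact binomial (Clopper-Pearson, 95%).

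Members with a summit, the 4 others with the lowest IDR and the pathway genes with a summit are named, and further names and the ribosomal protein, promoter word and repeat comparisons were chosen after their values were seen. The members and lists were chosen with earlier results of these data known. Ufd1-like was matched under its current symbol, Ufd1. Alternatives changed the list, the threshold, the window, the word and its width. Python 3.11.15 with scipy 1.17.1, numpy 2.4.6 and matplotlib 3.10.9 was used. On simulated data, all 200 genes with a placed summit and all 200 sequences with a placed word were found.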

Additional observations from a re-analysis of the deposited data

How the results depend on the processing

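The count of members with a summit, 1, was 2 in the second thresholded list of the series, 0 among the stronger peaks of the conservative list (those above its median signal), 4 at an IDR of 0.05 and 3 with 5 kb upstream, and ranged from 0 without replicate 1 to 2 without replicate 2. The regulatory particle count, 1, was 2, 0, 4 and 2 under the same settings and ranged from 0 to 2 over the replicates. The core particle count of 0 became 1 with 5 kb upstream. The count of members with a summit nearest their own TSS, 1, was 2 in the second list, 0 among the stronger peaks and 2 at an IDR of 0.05, and ranged from 0 to 1 over the replicates. The share of member summits with WGATAR, 0%, rests on 1 summit, and was 100% for a bare GATA. Without replicate 1, and among the stronger peaks, there was no member summit to give a share. Without replicate 2, and in the second list, 1 of 2 member summits had the word. The cause of these changes was not tested. Merged peaks and the gene body alone changed none of these 4 counts. A distance of 1 kb from the TSS, run for the counts by window, and TSSs of all annotated genes, run for the count by nearest TSS, changed none either. The members with a summit differed between lists, and Rpn3 was in neither replicate's own thresholded list. With depth unknown, occupancy too weak or rare to pass the IDR threshold could not be told from none. No paired analysis was possible because the study has 1 group.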
